A study of Mus musculus with 6 samples.

Results

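The genes described here are 10 chemokine ligands, Ccl9, Ccl6, Ccl12, Ccl2, Ccl7, Ccl11, Ccl20, Ccl25, Ccl28 and Cxcl12, among 18193 genes measured in sorted small intestinal cells of mice. They were chosen by symbol, with their difference between the treatment groups already known. The difference between the groups is therefore given for these 10 genes as a description, with no separate test. They were part of the test over all genes, and nothing is read from which of them passed it. A gene was represented by its brightest probe set over all arrays. The 10 genes had 17 probe sets, and 5 of them had more than 1.

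The samples were 6 Affymetrix expression arrays, each of total RNA from the small intestinal cells of a different mouse. All mice carried the Lgr5-EGFP-IRES-creERT2 allele, in which the promoter of Lgr5, a receptor gene of crypt base stem cells, drives EGFP and an inducible Cre, and cells with high GFP were sorted. A vehicle group of 3 mice received DMSO. The other group of 3 mice received DBZ, a gamma-secretase inhibitor that blocks the release of the active part of Notch receptors, and cells of both groups were collected at 24 h. Strain and age are not stated in the labels, the dose is left out because its unit as written seems incomplete, and the free-text description of the DBZ arrays names DMSO, against their titles.

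Chemokines are small secreted proteins that attract leukocytes through receptors coupled to G proteins. The CC ligands have adjacent cysteines near their start and the CXC ligands have a residue between them. In the small intestine, Ccl25 and Ccl28 of the epithelium are known to draw lymphocytes and plasma cells to the mucosa, and Ccl20 draws cells to lymphoid follicles. Ccl2, Ccl7 and Ccl12 are known as attractants of monocytes, and Cxcl12 is made mainly by stromal cells.

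Array medians lay between 44.9 and 46.3 intensity units. As a check of the treatment labels, the Notch targets Hes1 and Nrarp were read first: Hes1 fell from 387 ± 50.5 to 213 ± 38.0 and Nrarp from 514 ± 40.1 to 129.7 ± 37.4 (SD, n = 3), with limma adjusted p-values of 0.039 and 0.016. Lgr5, on which the cells were sorted, was at 245 ± 35.9 and 229.9 ± 17.95. Listed genes of other epithelial cells were bright in the vehicle arrays too. Their summed intensities were 129401 to 142476 for 16 goblet, 81503.5 to 84556 for 10 enterocyte and 69696 to 82864 for 9 Paneth genes. Lgr5 alone does not show how pure the sorted cells were. RNA integrity, read from the actin probe sets at both transcript ends, gave 3'/5' ratios of 1.61 to 2.22 for vehicle and of 1.51 to 1.57 for DBZ. Those ranges did not overlap, while the same ratio of Gapdh did, at 1.07 to 1.42 for vehicle and 1.05 to 1.09 for DBZ. The actin ratio thus moved with the groups, and its part in the differences below was not tested. Of all genes, 972 were called (5.34%; limma, Benjamini-Hochberg adjusted p under 0.05), 3.82% higher and 1.52% lower in DBZ arrays. Without vehicle replicate 1, 2 or 3 the count was 49, 19 and 38, and without DBZ replicate 1, 2 or 3 it was 2032, 217 and 352.

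The sequences before the start sites of Ccl9, Ccl6 and Ccl12 are shown because these genes stood higher together in DBZ arrays and Atoh1, a factor that binds E-boxes, rose in the same arrays from 744 ± 128 to 2810 ± 416 (SD, n = 3; limma, Benjamini-Hochberg adjusted p = 0.0097). Each is the 250 bases before the annotated start, 5′ to 3′ on the gene's strand, from RefSeq on GRCm38.p6, with CAGCTG, an E-box, and TATAAA on either strand in capitals. They lie at chr11:83578637-83578886 on the minus strand for Ccl9, chr11:83593088-83593337 on the minus strand for Ccl6 and chr11:82101595-82101844 on the plus strand for Ccl12.
Ccl9: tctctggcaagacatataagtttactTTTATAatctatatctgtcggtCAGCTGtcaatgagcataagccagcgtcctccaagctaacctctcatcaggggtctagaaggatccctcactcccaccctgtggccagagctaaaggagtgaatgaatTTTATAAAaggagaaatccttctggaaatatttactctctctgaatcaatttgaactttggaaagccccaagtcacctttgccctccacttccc
Ccl6: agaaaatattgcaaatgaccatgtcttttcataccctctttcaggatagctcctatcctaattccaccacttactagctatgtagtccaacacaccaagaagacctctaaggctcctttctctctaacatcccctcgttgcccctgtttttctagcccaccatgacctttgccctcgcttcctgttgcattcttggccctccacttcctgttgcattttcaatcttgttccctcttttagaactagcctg
Ccl12: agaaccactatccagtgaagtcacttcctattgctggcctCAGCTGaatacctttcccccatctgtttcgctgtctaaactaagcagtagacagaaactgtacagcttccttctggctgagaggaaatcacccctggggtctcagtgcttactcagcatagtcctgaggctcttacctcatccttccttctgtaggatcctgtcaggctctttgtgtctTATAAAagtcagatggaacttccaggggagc

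The promoter table held 8 entries for 7 of the 10 genes, and Ccl2, Ccl7 and Ccl11 were not among them. CAGCTG, which reads the same on both strands, was present in the entries of Ccl9, Ccl12 and Ccl28, against 13.0% of all 32851 promoters of the same length. The wider E-box CANNTG, which includes CAGCTG, was present in 6 of the 8 entries and in 66.2% of all promoters. TATAAA was present in Ccl9, Ccl12 and an entry of Ccl25 (12.4% of all), and TGANTCA, the AP-1 site, in Ccl9 (6.75%). The core TGGGAA of the Notch partner RBPJ was present in Ccl20 and Cxcl12 (21.6% of all). All motifs were searched on both strands, and a match describes the letters only.

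A match to the NF-kB site, the element through which many chemokine genes answer inflammatory signals, was found in the entries of Ccl9 and Ccl20 and in 3.9% of all promoters. Both are shown with 12 bases on each side and the match in capitals, because Ccl20 was the member that stood apart on a single array. The window of Ccl9 lies at chr11:83578650-83578683 on the minus strand and that of Ccl20 at chr1:83116674-83116707 on the plus strand.
Ccl9: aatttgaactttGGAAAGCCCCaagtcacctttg
Ccl20: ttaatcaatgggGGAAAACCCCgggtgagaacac

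Ccl9 and Ccl6, which both act on the receptor Ccr1, were higher in all 3 DBZ arrays. Ccl9 was at 487, 527 and 437 intensity units in vehicle replicates 1, 2 and 3, and at 4152, 5219.6 and 5478 in DBZ replicates 1, 2 and 3. No vehicle array came near a DBZ array, and the spread within each group was small beside the gap. The means were 484 ± 45.3 and 4949.6 ± 703 (SD, n = 3), a ratio of 10.2 and a log2 difference of 3.31 ± 0.13 (SE) on the scale of log2(intensity + 16) that is used throughout. The other probe set of Ccl9 gave the same picture, with 146, 239 and 220.4 in vehicle and 2097, 2371 and 2768 in DBZ arrays, a log2 difference of 3.50 ± 0.19.

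Ccl6 was already bright in vehicle arrays, at 3505, 4268 and 3977, and stood at 6699.8, 9981 and 9553 in DBZ arrays. The groups did not overlap, and DBZ replicate 1 was the lowest of its group. The means were 3917 ± 385 and 8745 ± 1784 (SD, n = 3), a log2 difference of 1.14 ± 0.17. Its second probe set, of a type that can match more than 1 transcript, had 2438, 2093 and 2195 in vehicle and 3279.9, 5696 and 6367 in DBZ arrays, with a difference of 1.13 ± 0.25. DBZ replicate 1 was thus the lowest DBZ array for both genes and in all 4 of their probe sets.

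Ccl12, Ccl2 and Ccl7, ligands of the monocyte receptor Ccr2, were dim in vehicle arrays and higher in every DBZ array. Ccl12 was at 34.97, 28.4 and 41.8 in vehicle replicates 1, 2 and 3, below the median of each array, and at 162, 156 and 138 in the DBZ arrays. Its 3 DBZ values were close together, and DBZ replicate 3 was the lowest of them. The means were 35.04 ± 6.69 and 152 ± 12.5 (SD, n = 3), and the log2 difference was 1.72 ± 0.11. Since the gene is dim in vehicle arrays, that size depends on the pseudocount and was 2.10 with a pseudocount of 1 and 1.12 with 64.

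Ccl2 was at 56.6, 47.3 and 48.2 in vehicle and at 214, 172 and 351 in DBZ arrays. DBZ replicate 3 was the highest and DBZ replicate 2 the lowest of the treated arrays, and the groups did not overlap. The means of 50.7 ± 5.11 and 246 ± 93.5 gave a log2 difference of 1.92 ± 0.24. Ccl7 followed the same order of arrays, with 45.9, 38.5 and 38.5 in vehicle and 148, 134 and 195 in DBZ arrays, and a difference of 1.605 ± 0.14. With a pseudocount of 64 the differences were 1.39 for Ccl2 and 1.08 for Ccl7.

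Ccl11, eotaxin, a ligand of the eosinophil receptor Ccr3, was at 108, 109 and 137 in vehicle and at 248, 278 and 353 in DBZ arrays. The highest vehicle array lay well below the lowest DBZ array. The means were 118 ± 16.4 and 293 ± 53.8 (SD, n = 3), with a log2 difference of 1.199 ± 0.15. Ccl12, Ccl2, Ccl7 and Ccl11 had 1 probe set each, so no second probe set stands beside these values. They are close relatives, and the deposited values do not show how far 1 probe set could pick up another's transcript.

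Cxcl12, whose receptors are Cxcr4 and the scavenger Ackr3, was at 459, 379 and 520.2 in vehicle and at 740.0, 573 and 802 in DBZ arrays. The groups were apart by a small margin between vehicle replicate 3 and DBZ replicate 2. The log2 difference was 0.62 ± 0.16. A second probe set gave 0.69 ± 0.09, from 78.8 ± 5.83 to 137 ± 15.8 (SD, n = 3), and the third, below the array median on all 6 arrays, gave -0.15 ± 0.07. As the mean of its probe sets the difference was 0.38.

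Ccl20, the ligand of Ccr6, differed on a single array. It was at 134, 104 and 141 in vehicle arrays, at 141 and 98.4 in DBZ replicates 1 and 2, and at 1607 in DBZ replicate 3, 11.4 times the next highest array. The log2 difference of 1.12 ± 0.97 rests on that array, and it was -0.08 without DBZ replicate 3. The other 2 treated mice lay within or just below the vehicle range.

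Ccl25, the ligand of the gut-homing receptor Ccr9, was among the bright genes and was lower in part of the DBZ arrays. It was at 6935, 8182 and 7969.5 in vehicle arrays and at 6981, 3780.0 and 1618 in DBZ replicates 1, 2 and 3. DBZ replicate 1 lay within the vehicle range and the other 2 below it, so the group means of 7696 ± 667 and 4126 ± 2698 (SD, n = 3) describe no array of the DBZ group well. The log2 difference was -1.13 ± 0.49, and it was -1.63 without DBZ replicate 1 and -0.58 without DBZ replicate 3. A second, dim probe set had -0.23 ± 0.10.

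Ccl28, a ligand of Ccr10 and Ccr3 made by mucosal epithelia, was at 1058, 914 and 1320.4 in vehicle and at 920.0, 483 and 685 in DBZ arrays. DBZ replicate 1 lay just above the lowest vehicle array, and the groups overlapped there. The log2 difference was -0.68 ± 0.25, and the other probe sets, both at low intensity, had -0.13 ± 0.06 and -0.11 ± 0.11. As the mean of its 3 probe sets the difference was -0.31.

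**Figure D1:**
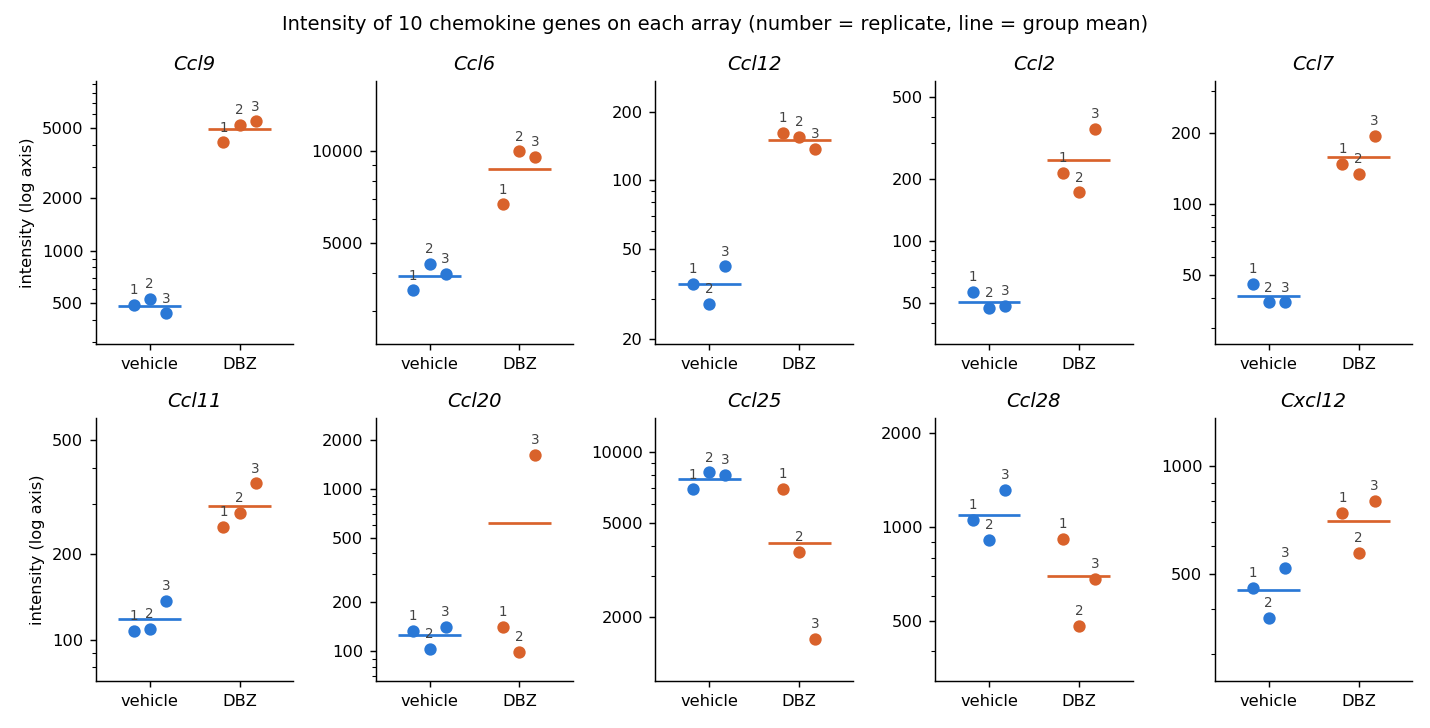
Intensity (log axis, deposited units) of the 10 chemokine genes on each of the 6 arrays, with vehicle in blue and DBZ in orange, the replicate number beside each point and a line at the group mean. Ccl9 lay between 437 and 527 in the vehicle group and between 4152 and 5478 in the DBZ group, Ccl20 was high on DBZ replicate 3 alone at 1607, and Ccl25 had DBZ replicate 1 at 6981 within the vehicle range.

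**Figure D2:**
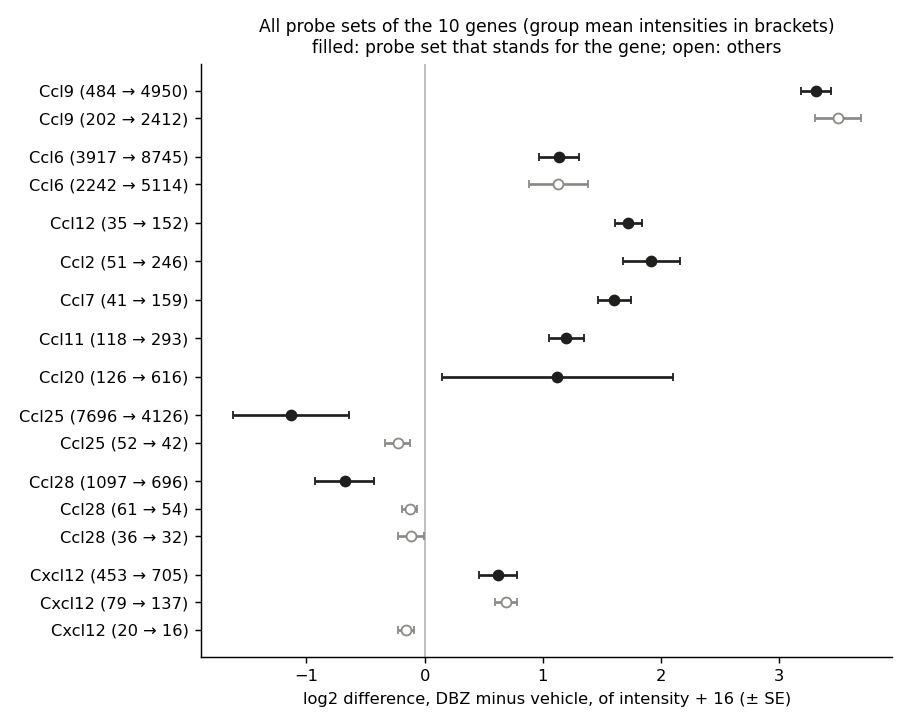
Log2 difference, DBZ minus vehicle, with SE, for all 17 probe sets of the 10 genes, filled where the probe set stands for the gene, with the group mean intensities in brackets. The 2 probe sets of Ccl9 stood at 3.31 and 3.50 and the 2 of Ccl6 at 1.14 and 1.13, while the dimmest of Cxcl12, at low intensity, lay at -0.15.

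Read together, 6 of the 10 genes were past the threshold of the test over all genes, all higher, where 3.82% of all genes were called higher. Without any 1 of the vehicle replicates only Ccl9 and Ccl12 of the 10 were called. The number was 7, 4 and 5 without DBZ replicate 1, 2 or 3, and the 7 included Ccl25 as lower. The groups did not overlap for 7 of the 10, all higher, against 17.3% of all genes (33.2% in either direction). Both counts follow from the way the genes were chosen, and nothing is read from them. The median log2 difference was 1.17 for the 10 genes and -0.02 for all genes. In these bulk samples fewer cells of a type and less RNA per cell cannot be told apart, and neither can more cells and more RNA per cell.

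The whole family of chemokine ligands was then counted, from a list of 38 that includes the 10 genes. Of the 35 measured, 9 were called higher and 0 lower (limma), and 28 were positive, with a median log2 difference of 0.73. At an unadjusted p under 0.05 there were 15, a level that 26.3% of all genes reached. The family median was 0.29 without DBZ replicate 3 and 0.43 with weights per array. Outside the 10 genes, 3 of 25 were called higher (3.82% of all genes), 11 had groups apart and higher (17.3% of all genes) and the median was 0.44, or 0.19 without DBZ replicate 3. The called count of the family was 2 without any 1 of the vehicle replicates and 5 without DBZ replicate 2. That outside the 10 was 0 without any 1 of the vehicle replicates and with a pseudocount of 64, and 1 without DBZ replicate 2.

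The 3 were Cxcl5, Cxcl13 and Pf4. Cxcl5, an attractant of neutrophils, was at 14.2, 20.02 and 20.6 in vehicle and at 228, 78.2 and 155 in DBZ arrays, a log2 difference of 2.21 ± 0.33 (SE, n = 3; limma, adjusted p = 0.030). DBZ replicate 2 was the lowest treated array and still above all vehicle arrays. Cxcl13, which draws B cells, rose from 166 ± 8.89 to 425 ± 121 and Pf4, platelet factor, from 147 ± 21.5 to 367 ± 130.05 (SD, n = 3), with limma adjusted p-values of 0.029 and 0.048. Ccl5, a ligand made by T cells, was on the other side, at 2168 ± 869 in vehicle and 1063.5 ± 271 in DBZ arrays (limma, adjusted p = 0.15).

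Of the 23 listed receptors 21 were measured, and 0 were called (limma), with 5 at an unadjusted p under 0.05 and a median of 0.03. Other settings called 0 to 2. Over all genes, 26.3% had an unadjusted p under 0.05 (limma). By the naming rule Ackr1 and Ackr3, scavengers of chemokines, had the smallest p, at 0.48 ± 0.11 and 0.37 ± 0.09 (SE, n = 3; limma, adjusted p = 0.056 and 0.061). The receptors that the 10 ligands act on are named beside them for that reason, outside the rule. Ccr1, the receptor of Ccl9 and Ccl6, was at 89.4, 64.5 and 106 in vehicle and at 225, 134 and 326 in DBZ arrays, without overlap, a difference of 1.19 ± 0.31 that did not pass (limma, adjusted p = 0.079).

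Ccr2, the receptor of Ccl2, Ccl7 and Ccl12, was at 44.1 ± 10.03 and 45.3 ± 1.68 (SD, n = 3), a log2 difference of 0.04 ± 0.12. Ccr3 was at -0.12 ± 0.09, Ccr6 at -0.19 ± 0.09 and Cxcr4 at -0.09 ± 0.12, all dim in both groups. Ccr10 was at 0.15 ± 0.12. Ccr9, the receptor of Ccl25, was at 236 ± 50.6 and 147 ± 43.0, a difference of -0.64 ± 0.23 (limma, adjusted p = 0.14). Most receptors thus lay near the low end of the arrays, with 17 of 21 below the median gene.

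**Figure D3:**
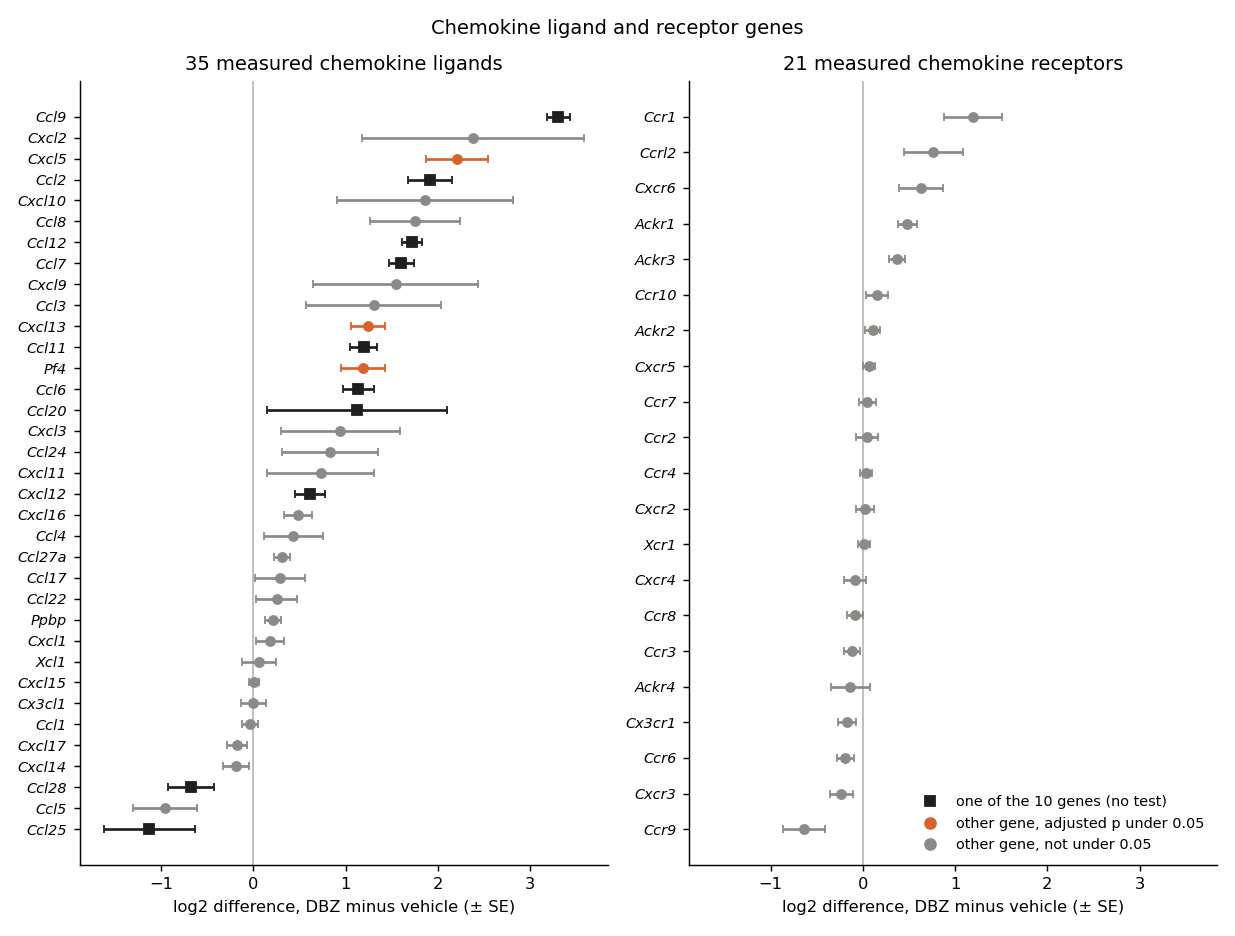
Log2 difference, DBZ minus vehicle, with SE, for 35 measured chemokine ligands (left) and 21 receptors (right), with the 10 genes as black squares and other genes in orange where called (limma, adjusted p under 0.05) and grey where not. Most ligands (28 of 35) lie above 0, Cxcl5, Cxcl13 and Pf4 are the 3 called outside the 10, and no receptor is called.

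The chemokine genes of mouse chromosome 11 lie in clusters, and position was not used to choose the 10 genes. Of the genes within 5 places of any of the 10 in the RefSeq gene table, 27 other genes were measured. Of these 0 were higher and 1 was lower, Timm44 beside Ccl25, from 889 ± 100.2 to 561 ± 69.2 (SD, n = 3; limma, Benjamini-Hochberg adjusted p = 0.043), against 5.34% called among all genes. The call of Timm44 was lost without any 1 of the vehicle replicates and without DBZ replicates 2 or 3 (limma, adjusted p = 0.070 to 0.12). The median of the 27 was -0.04.

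Within the cluster of Ccl2, Ccl7, Ccl11 and Ccl12, the next gene after Ccl12 is Ccl8, another monocyte attractant. It was at 304, 117 and 321 in vehicle and at 900.3, 456 and 1252 in DBZ arrays, without overlap, a log2 difference of 1.75 ± 0.49 (limma, adjusted p = 0.087). Ccl1, the gene after Ccl8, was at 27.4 ± 3.66 and 26.2 ± 2.58, a difference of -0.04 ± 0.09. Beside Ccl9 and Ccl6, Ccl5 was lower in mean as given above and Ccl3 was at 28.7, 21.2 and 27.9 in vehicle and 52.1, 29.5 and 339 in DBZ arrays. Neighbours thus had values on both sides of 0.

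Genes that other signals are known to switch on together with chemokines were counted next. Beside these counts, 3.82% of all genes were called higher and 26.3% had an unadjusted p under 0.05 (limma). Of 17 measured genes of the NF-kB response 3 were called higher and 0 lower, with a median of 0.29: Lcn2 by 2.42 ± 0.45, the adhesion gene Icam1 by 1.42 ± 0.24 and Ier3 by 0.99 ± 0.18 (SE, n = 3; limma, adjusted p = 0.042, 0.034 and 0.039). The median of that list was 0.14 without DBZ replicate 3 and 0.19 without vehicle replicate 2. Over the runs that left out each array it ranged from 0.14 to 0.43. Of the 17 genes 14 were positive, and 8 had an unadjusted p under 0.05 (limma). Groups were apart and higher for 8 (17.3% of all genes) and apart and lower for 0. Nfkbia, the inhibitor that NF-kB induces first, was at 0.03 ± 0.19. Of 18 inflammatory cytokine genes 2 were called higher, with a list median of 0.14, and 14 of the 18 lay below the median gene. The alarmin Il33 went from 52.1 ± 3.41 to 363 ± 92.1 (SD, n = 3). Csf1, the growth factor of macrophages, went from 87.6 ± 12.3 to 227 ± 59.0. Their limma adjusted p-values were 0.0074 and 0.030. Of 14 interferon response genes 0 were called (limma), 2 at an unadjusted p under 0.05, with a median of 0.49, Bst2 at 0.78 ± 0.20 and Gbp2 at 1.77 ± 0.70. Without DBZ replicate 3 that median was 0.058 and Gbp2 stood at 1.04, and without DBZ replicate 2 they were 0.81 and 2.43; the median was 0.32 without vehicle replicate 2.

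Markers of cells other than stem cells were also counted, since the arrays measured all sorted cells together. Over all genes, 3.82% were called higher. Of 18 fibroblast and smooth muscle genes 10 were called higher, with a median of 0.79, Lum by 1.84 ± 0.21 and Col1a2 by 1.24 ± 0.14 (SE, n = 3; limma, adjusted p = 0.020 and 0.021). Summed over the list, vehicle arrays lay between 27258 and 38430.0 and DBZ arrays between 56011 and 63784. Of 8 measured adipocyte genes 3 were called higher, with a median of 1.65 and sums of 1910 to 3937 and 6319 to 15449. Adipoq was at 2.72 ± 0.54 and Retn at 2.32 ± 0.41. Of 13 endothelial genes 3 were called higher (median 0.42, sums 1768 to 1819 and 2162 to 2624), with Esam at 0.62 ± 0.08 and Kdr at 0.46 ± 0.07. All 3 lists were higher with DBZ, as were Ccl9, Ccl6, Ccl12, Ccl2, Ccl7, Ccl11 and Cxcl12, and their part in those values was not tested. Over DBZ replicates 1, 2 and 3 the list medians stood above the vehicle mean by 0.74, 0.82 and 1.01 (fibroblast and smooth muscle), 1.59, 1.12 and 2.25 (adipocyte) and 0.34, 0.29 and 0.53 (endothelial). All 3 were highest on replicate 3, as were Ccl9, Ccl2, Ccl7, Ccl11 and Cxcl12. Ccl12 was lowest there, at 1.81, 1.76 and 1.599 on replicates 1, 2 and 3. The macrophage and monocyte median, at 0.82, 0.12 and 0.91, and the neutrophil median, at 0.34, 0.06 and 0.57, were highest there too. So were the NF-kB, cytokine, interferon, mesothelial, goblet and Paneth medians. The T cell, B and plasma cell, mast cell and eosinophil, enteroendocrine, tuft and enterocyte medians were not. The order therefore does not single out the fibroblast, adipocyte and endothelial lists.

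Markers of leukocytes gave a mixed picture. Among all genes, 26.3% had an unadjusted p under 0.05 (limma) and 3.82% were called higher. Of 15 macrophage and monocyte genes 0 were called (limma), 9 at an unadjusted p under 0.05, with a median of 0.65, sums of 8071 to 9796 and 8344 to 14089, Mrc1 at 0.99 ± 0.24 and Fcgr1 at 0.90 ± 0.26 (SE, n = 3). Of the 15 genes 12 were positive. Groups were apart and higher for 7 (17.3% of all genes) and apart and lower for 0. Among the negative genes, the pan-leukocyte gene Ptprc was at -0.16 ± 0.24 and the macrophage receptor gene Csf1r at -0.34 ± 0.24. Of 10 neutrophil genes S100a8 and S100a9 were called higher, at 4.97 ± 0.74 and 4.82 ± 0.78, with 4 at an unadjusted p under 0.05 and a median of 0.32 (0.201 without DBZ replicate 3). The other 8 lay below the median gene. Of these, Clec4d at 2.24 ± 0.85 and Stfa2l1 at 0.88 ± 0.28 had groups apart and higher, and the granule genes Mpo, Elane, Ngp and Camp were slightly negative. Sums were 295 to 375 and 873 to 6486. Of 13 T cell genes 0 were called, 3 at an unadjusted p under 0.05, with a median of -0.38, Gzma at -1.42 ± 0.42 and Cd7 at -0.69 ± 0.18. That median ranged from -0.63 without vehicle replicate 2 to -0.165 without DBZ replicate 2. Their sums were 3347 to 6633 with vehicle and 1777 to 3490.3 with DBZ.

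Of 10 mast cell and eosinophil genes 1, Kit, was called higher, at 1.71 ± 0.21, and the other 9, among them Cpa3, Siglecf and Epx, lay below the median gene, with a list median of -0.07. Kit and Siglecf, the 2 at an unadjusted p under 0.05 (limma), went opposite ways, with Siglecf at -0.32 ± 0.12. Groups were apart and lower for 2, Siglecf and Tpsb2 (15.8% of all genes), and apart and higher for Kit. The list's sums, 433 to 615 and 1178 to 1496, differ through Kit, which went from 356 ± 92.3 to 1176 ± 162 (SD, n = 3). Of 9 B and plasma cell genes 0 were called and 0 had an unadjusted p under 0.05 (limma), with Cd79a at -0.26 ± 0.13, Blk at -0.26 ± 0.13 and sums of 10267 to 13579 and 11025 to 13762. Of 8 mesothelial genes 0 were called, 7 at an unadjusted p under 0.05, with Upk3b at 2.16 ± 0.55 and Gpm6a at 1.57 ± 0.42, both dim, and a median of 0.698. All but Krt19 were positive. An unadjusted p under 0.05 (limma) was reached by 26.3% of all genes. The list's sums of 11029.7 to 14609 and 10808 to 11619 are mostly Krt19, a keratin that epithelium also makes, at 12572 ± 1813 and 10201 ± 643 (SD, n = 3). The part of these cells in the chemokine values was not tested.

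Epithelial lists were set beside Ccl9, Ccl6, Ccl25 and Ccl28. Among all genes, 3.82% were called higher and 26.3% had an unadjusted p under 0.05 (limma). Of 16 goblet genes 8 were called higher and all 16 were positive, with Creb3l4 at 2.00 ± 0.26. Their median stood at 0.54, 1.18 and 1.27 above the vehicle mean on DBZ replicates 1, 2 and 3, the log2 scale on which Ccl6 stood at 0.78, 1.35 and 1.29 and Ccl9 at 3.06, 3.39 and 3.46. All 3 were lowest on DBZ replicate 1. That was so of other lists too, the enteroendocrine median being 0.36, 1.42 and 0.81, the tuft median 0.13, 0.72 and 0.27, the Paneth median -0.64, 0.022 and 0.203, and the fibroblast median as given above, so the order does not single out goblet genes. Of 10 enterocyte genes 0 were called (limma), 4 at an unadjusted p under 0.05, and all were negative, with Mttp at -0.43 ± 0.16 and Lct at -0.29 ± 0.07. The enterocyte median stood at -0.07, -0.29 and -0.50 on DBZ replicates 1, 2 and 3, where Ccl25 stood at -0.14, -1.02 and -2.23, in the same order of arrays. Ccl28 did not follow that order, at -0.23, -1.14 and -0.65, and was lowest on DBZ replicate 2. Whether the order over 3 arrays ties either gene to enterocytes was not tested.

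Of 9 Paneth genes 3 were called higher, Mmp7, Pla2g2a and Cd24a (median -0.02), with Pla2g2a at 2.18 ± 0.39 and Mmp7 at 1.37 ± 0.23. On the other side were Ang4 at -2.702 ± 0.66, Mptx1 at -2.25 ± 0.53 and Lyz1, lysozyme, at -0.303 ± 0.15, each with groups apart and lower, which did not pass (limma, adjusted p = 0.068, 0.065 and 0.26). Of 15 enteroendocrine genes 3 were called higher (median 1.10), among them Neurod1 at 1.84 ± 0.12 and Isl1 at 1.67 ± 0.17. Of 8 tuft cell genes 0 were called, with Trpm5 at 0.43 ± 0.10 and Avil at 0.91 ± 0.30. At an unadjusted p under 0.05 (limma) there were 3, a level that 26.3% of all genes reached. The called shares of all genes were 3.82% higher and 1.52% lower. Of 10 crypt stem cell genes 2 were called lower, Olfm4 and Ascl2, at -6.63 ± 0.19 and -1.03 ± 0.13, and of 11 Notch targets 4 were called lower, with Hes6 at 0.44 ± 0.14 on the other side. The naming rule gave 28 called genes outside the 10. With vehicle replicate 1, 2 or 3 left out, 24, 25 and 24 of them were no longer called, and with DBZ replicate 1, 2 or 3 left out the numbers were 0, 12 and 10. Olfm4 and Neurod1 were called in all 6 of these fits.

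**Figure D4:**
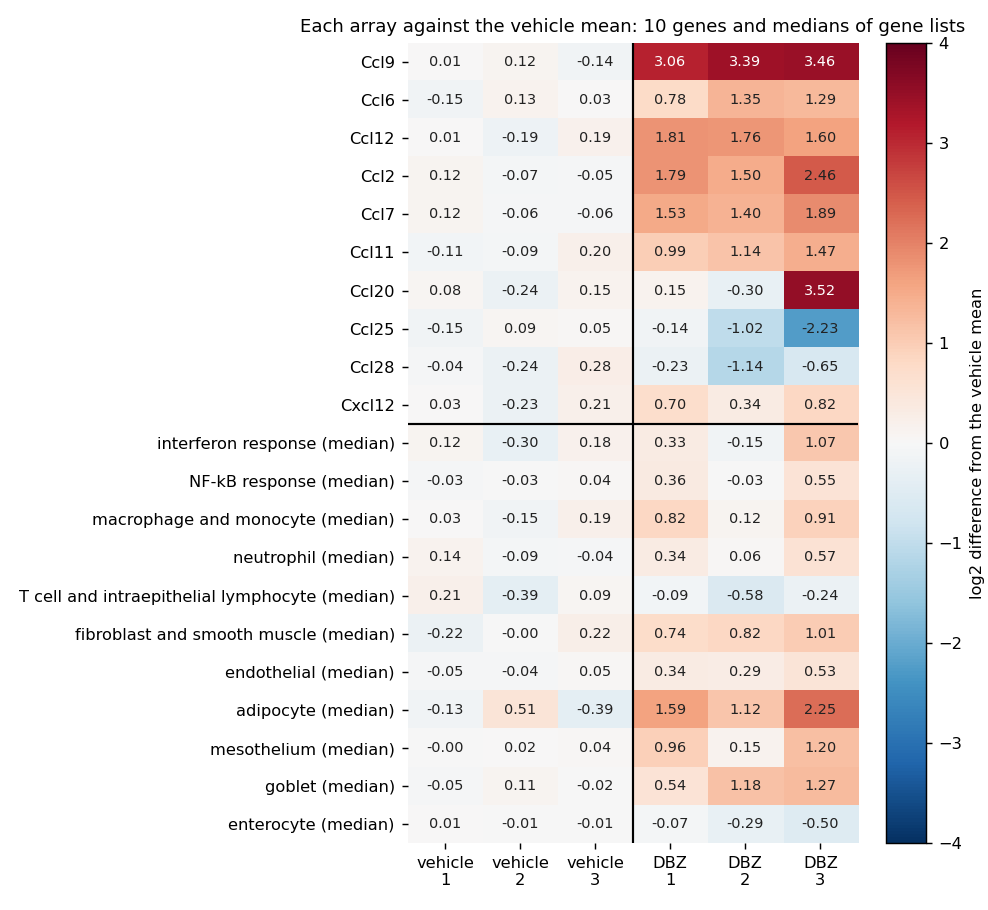
Log2 difference of each array from the vehicle mean for the 10 genes (upper rows) and the median of the same quantity for 11 gene lists (lower rows), with the 3 vehicle arrays on the left and the 3 DBZ arrays on the right. Ccl20 stands out on DBZ replicate 3 at 3.52, and Ccl25 runs from -0.14 to -2.23 over the DBZ arrays.

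The genes with the most similar profile were found by the root mean square difference over the 6 arrays, with each gene on the log2 scale as a difference from its own vehicle mean, among 8941 genes above the median gene. For Ccl9 these were Steap4 (0.37), Car3 (0.47) and Timp1 (0.61). Steap4, a metal reductase, went from 48.6 ± 5.26 to 741 ± 200 (SD, n = 3). For Ccl6 they were Krt7, a keratin, Slc35a1, a sugar transporter of the Golgi, and Lrrc26, at 0.10 each. For Ccl12 they were Pcolce (0.17), an enhancer of collagen processing, Upb1 (0.20) and Ptpro (0.20), and for Ccl2 they were Ccdc80 (0.13), Ifitm1 (0.18) and Nnmt (0.19). The filter used the mean over all 6 arrays, so a gene below the median gene in vehicle arrays could pass through its DBZ values. Steap4, Timp1, Upb1, Ptpro, Ccdc80 and Nnmt passed in this way. These distances are a description over 6 arrays in 2 groups, and a gene chosen for a large difference will lie near other genes with a large difference.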

How the data were processed

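The authors deposited 1 table of probe set intensities on a linear scale for the 6 arrays. Which software and normalization they used is not given in the sources used here. Of 45101 probe sets, 34945 had a single symbol in the platform annotation, which gave 18193 genes. Array medians differed by less than 0.1 on the log2 scale, so values were kept as deposited. Values were tested as log2(intensity + 16), which understates the change of dim genes, by limma 3.58.1 (R 4.3.3; lmFit, eBayes), two-sided. All 18193 p-values were adjusted together by Benjamini-Hochberg, and genes under 0.05 are called. The steps were first tested on simulated data. SE is the moderated standard error. The number of arrays is 1 limit on precision among others, and an exact permutation test of 3 against 3 cannot go below p = 0.1. Promoters came from RefSeq (GRCm38.p6).

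The 10 genes and all lists were chosen with earlier results of these data known. Named genes outside the 10 are up to 4 called genes of largest difference in each signalling, ligand, receptor or neighbour list and up to 2 in each cell type list, or the 2 of smallest p where none was called, the 3 nearest profiles of 4 of the 10 genes, and Hes1, Nrarp, Olfm4, Atoh1 and Lgr5 as checks. Nfkbia, Ptprc, Csf1r, Siglecf, Tpsb2, Cd24a, Ang4, Mptx1, Lyz1, Clec4d, Stfa2l1, Krt19, Hes6, Cxcl1, Ccl1, Ccl3, Ccl5, Ccl8, the receptors of the 10 genes, the ligands high on DBZ replicate 3 and genes named only as dim were named after their values had been seen. Alternatives were quantile normalization, centring, pseudocounts of 1 and 64, a filter on dim genes, the mean of probe sets, no _x_at probe sets, eBayes with trend and robust, weights per array, a block for the replicate number, and leaving out each array.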

Additional observations from a re-analysis of the deposited data

How the results depend on the processing

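Precision is limited by 3 arrays per group, and genes near the low end of the arrays have folds that depend on the pseudocount. With array weights 2690 genes were called, 1660 higher and 1030 lower, and with a pseudocount of 64 the counts were 440, 310 and 130, against 972, 695 and 277. Leaving out each array gave 19 to 2032 genes called, 16 to 1305 higher and 3 to 727 lower. Chemokine ligands called ranged from 2 to 11 when each array was left out, those outside the 10 genes from 0 to 4, receptors from 0 to 1 and neighbouring genes from 0 to 2. With a pseudocount of 64, 0 ligands outside the 10 genes and 0 neighbouring genes were called. Receptors called were 2 with array weights, 2 among genes at or above the median gene and 1 with a pseudocount of 1; neighbouring genes called were 3 and 2 in the first of these settings and the second. With the replicate number as a block 889 genes were called, with 11 ligands, 4 of them outside the 10 genes, 1 receptor and 3 neighbouring genes. The values do not settle whether the numbers pair the mice. Deviations of same-numbered arrays correlated at -0.0086, 0.246 and 0.2 across genes for replicates 1, 2 and 3. Arrays of replicates 2 and 3 correlated best with their own number, and those of replicate 1 did not. The 10 genes' log2 differences kept their sign in every alternative run except Ccl20 without DBZ replicate 3. Ccl9 ranged from 3.19 to 3.43, Ccl6 from 1.03 to 1.32, Ccl12 from 1.12 to 2.10, Ccl2 from 1.39 to 2.19, Ccl7 from 1.08 to 1.92 and Ccl11 from 0.97 to 1.30. The causes were not tested.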

Other observations

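Many chemokine ligands were highest on DBZ replicate 3, a pattern noticed after the values had been seen. Of the 35 measured ligands, 22 had their highest value on that array (62.9%, against 22.4% of all genes). On it 8 ligands, Ccl3, Ccl20, Ccl24, Cxcl2, Cxcl3, Cxcl9, Cxcl10 and Cxcl11, were at least 2 times the next highest array, or 22.9% of the ligands against 0.605% of all genes. No ligand was so on any of the other 5 arrays. Cxcl2, an attractant of neutrophils, was at 16.9 to 20.9 in vehicle arrays, at 88.6 and 26.0 in DBZ replicates 1 and 2 and at 1322 in DBZ replicate 3. Cxcl10 and Cxcl9, ligands induced by interferon, were at 1839 and 3010 on that array, 8.33 and 5.45 times the next highest. The median of the interferon response genes stood at 0.33, -0.15 and 1.07 above the vehicle mean on DBZ replicates 1, 2 and 3 (log2).

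Among the 10 genes, Ccl9 was also highest on DBZ replicate 3, but only 1.05 times the next array, Ccl6 was highest on DBZ replicate 2 and Ccl12 on DBZ replicate 1. The neutrophil attractants Cxcl1 and Cxcl5 were highest on DBZ replicate 1 as well, Cxcl1 with 231, 161 and 152 on DBZ replicates 1, 2 and 3.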
